A study of Mus musculus with 63 samples.

Results

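The 4 early growth response genes Egr1, Egr2, Egr3 and Egr4 and the 2 genes of their corepressors, Nab1 and Nab2, were followed through 63 RNA-sequencing libraries of mouse entorhino-hippocampal tissue cultures. They were chosen by symbol, as 6 of 55291 gene symbols in the count tables, and all 6 had counts. Egr1 had been singled out for the size of its change after an entorhinal cortex lesion in cultures labelled Synpo-/-. Values from the regional libraries with that label are therefore given as a description, without a test. Tests were confined to wildtype regional libraries and to the libraries of the co-immunoprecipitation experiment.

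Egr proteins are zinc finger transcription factors of the immediate early class. Their genes are transcribed within minutes of synaptic activity or growth factor signalling, through MAP kinases that act on serum response factor and its ternary complex partners and through CREB, and no new protein is needed for that first step. In the hippocampus Egr1 (also Zif268) is widely used as a marker of active neurons and has been linked to late phases of long-term potentiation, whereas Egr2 (Krox20) is best known from hindbrain patterning and from myelination by Schwann cells. Nab1 and Nab2 bind to Egr1, Egr2 and Egr3, which carry a domain for them that Egr4 lacks, and repress their target genes, in part through the NuRD chromatin complex. Nab2 is itself described as a target of Egr proteins, which closes a negative feedback loop.

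Cultures were prepared at postnatal days 3 to 5 from C57BL/6J mice (wildtype, Synpo+/+) and from the B6.129-Synpotm1Mndl/Dllr strain (Synpo-/-), which lacks the actin-binding protein synaptopodin and was backcrossed to C57BL/6J. Mice of either sex were used, and cultures were at least 18 days in vitro when the perforant path was transected (entorhinal cortex lesion, ECL). In the regional experiment each library held 1 dentate gyrus (DG) or 1 CA3 area cut from 1 culture, either at 3 days after the lesion or without one. It comprised 2 control and 3 ECL libraries from Synpo+/+ CA3, 4 and 7 from Synpo+/+ DG, 6 and 6 from Synpo-/- CA3, and 7 and 4 from Synpo-/- DG. In the synaptopodin co-immunoprecipitation (coIP), RNA was recovered with an anti-synaptopodin antibody from the lysate of 6 pooled cultures in the presence of cycloheximide, which holds ribosomes on mRNA. Part of the precleared lysate was kept as input. Here 5 input and 5 coIP libraries came from Synpo+/+ control cultures, 5 and 5 from Synpo+/+ cultures with ECL, and 2 and 2 from Synpo-/- cultures. The titles of the Synpo-/- libraries name no lesion, and they were set against Synpo+/+ control cultures. In these bulk samples, fewer cells of a type and less RNA per cell cannot be told apart.

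By GENCODE annotation of GRCm38, Egr1 (ENSMUSG00000038418.7) lies on chromosome 18 at 34859823 to 34864984, Egr2 (ENSMUSG00000037868.15) on chromosome 10 at 67535475 to 67542188, and Egr3 (ENSMUSG00000033730.4) on chromosome 14 at 70077203 to 70082614, each on the plus strand. Egr4 (ENSMUSG00000071341.4) lies on chromosome 6 at 85511121 to 85513589, Nab1 (ENSMUSG00000002881.14) on chromosome 1 at 52457294 to 52500679, and Nab2 (ENSMUSG00000025402.12) on chromosome 10 at 127660918 to 127668568, each on the minus strand. Exons of Nab2 overlap those of genes on the other strand. Over 1050 bases (35.7% of its exon length) they share sequence with the antisense gene Gm16229, and over 151 and 40 bases with Nemp1 and Stat6. Reads were counted without regard to strand, so Nab2 values carry that uncertainty. Exons of the other 5 members overlapped no other gene.

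Libraries held 14055930 to 46043990 counts in the regional experiment and 11601154 to 53682143 in the coIP experiment. The targeted gene did not mark the genotype. Synpo was at 30.4 to 69.3 counts per 1000000 (CPM) in the 23 regional libraries labelled Synpo-/- and at 19.1 to 38.4 CPM in the 16 regional libraries labelled Synpo+/+, so the counts over its exons were not lower under the knockout label. The labels are used here as given. Granule cell markers, summed over 8 genes, ranged from 443 to 560 CPM in Synpo+/+ DG control libraries and were at 83.5 and 84.2 CPM in the 2 Synpo+/+ CA3 control libraries. One Synpo+/+ DG library of the ECL group, replicate 5, went against its region label. Its Prox1, the defining transcription factor of granule cells, was at 15.5 CPM, against 170 to 217 CPM in the 6 other libraries of its group and 12.7 to 17.2 CPM in the 5 Synpo+/+ CA3 libraries. Its summed CA3 pyramidal cell markers were at the top of its group, at 675 CPM. The main tests of this report that use this library are given with and without it. Tests under alternative settings or in a subset of libraries are given only with it.

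Sequences upstream of a transcription start were taken from RefSeq (GRCm38.p6), in which windows of 250 bases were matched for Egr2, Egr4, Nab1 and Nab2. Printed are those with a match, outside exons of the gene or as a short stretch, to letters through which stimulus-driven transcription of the family is described to act. Capitals mark CArG boxes (CC, 6 bases of A or T, then GG), which serum response factor binds, and TGACG, the core of the cyclic AMP response element that CREB binds, on either strand. The first sequence is the window before 1 start of Egr2, the second a stretch of 30 bases at positions -76 to -47 from another start of Egr2, within an exon of a further RefSeq transcript, and the third the window before the start of Egr4.
Egr2 (GRCm38.p6, chr10:67537316-67537565, plus strand): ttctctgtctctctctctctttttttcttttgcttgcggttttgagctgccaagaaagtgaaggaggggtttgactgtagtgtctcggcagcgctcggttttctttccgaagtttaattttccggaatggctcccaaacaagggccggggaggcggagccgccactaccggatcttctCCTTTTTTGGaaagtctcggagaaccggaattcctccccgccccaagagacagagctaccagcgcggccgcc
Egr2 (GRCm38.p6, chr10:67537793-67537822, plus strand): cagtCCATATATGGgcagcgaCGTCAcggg
Egr4 (GRCm38.p6, chr6:85513590-85513839, minus strand): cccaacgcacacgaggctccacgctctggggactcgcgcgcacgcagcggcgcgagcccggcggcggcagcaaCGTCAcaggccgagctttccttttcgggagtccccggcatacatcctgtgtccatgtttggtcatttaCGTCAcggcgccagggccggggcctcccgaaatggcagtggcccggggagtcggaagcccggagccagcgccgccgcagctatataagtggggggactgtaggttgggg

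In both Egr2 sequences the CArG box lay at positions -72 to -63 from its start. A CArG box was present in 1.47% of 32851 RefSeq promoter windows of the same length, and TGACG in 17.8%. The Egr4 window held 2 such cores, at -177 to -173 and -109 to -105, and no CArG box. In the Nab1 window, which lies within an annotated exon of Nab1 and is not printed, the Egr motif GCGTGGGCG was found at -109 to -101 and, on the other strand, at -141 to -133, against 0.536% of windows with at least 1 match. The Nab1 window also held TGACG, on the other strand, at -123 to -119. No match to these motifs was found in the Nab2 window or in a further Egr2 window, at 67535249 to 67535498 on chromosome 10. Such matches describe letters in a window and not binding.

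Before any lesion, Egr3 made up most of the summed Egr level in the regional libraries. Levels of different genes were compared per kb of exon. In Synpo+/+ DG control libraries Egr3 stood at 13.1 ± 1.27 CPM per kb (SD, n = 4), Egr1 at 4.71 ± 0.706, Egr4 at 0.626 ± 0.348 and Egr2 at 0.294 ± 0.110. As shares of the summed Egr level per kb this was 70.0% ± 1.83 for Egr3, 25.0% ± 1.33 for Egr1, 3.39% ± 2.00 for Egr4 and 1.60% ± 0.664 for Egr2. Synpo+/+ CA3 control libraries showed a like order, with Egr3 at 68.2% ± 4.63 and Egr1 at 28.1% ± 2.08 (n = 2). Of the corepressors, Nab1 was the higher one, at 5.45 ± 0.640 CPM per kb in Synpo+/+ DG control libraries against 1.03 ± 0.255 for Nab2.

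Without a lesion, no member was called different between DG and CA3 of Synpo+/+ cultures. A gene counted as called where the quasi-likelihood test of edgeR gave an adjusted p below 0.05, and 5.39% of 25656 genes were called in this comparison. DESeq2 called 0 of the 6 members. An unadjusted p under 0.05 was found for 4521 of all genes and for 1 member. This was Egr1, which read 19.5, 19.3, 25.9 and 19.7 CPM in the 4 DG libraries and 28.5 and 26.2 CPM in the 2 CA3 libraries. The 4 DG values lay below both CA3 values, with a log2 fold change (DG over CA3) of -0.36 ± 0.16 (SE) and an adjusted p of 0.27 (edgeR). How many of all genes separated in this way is not given. The other 5 members differed by -0.28 to 0.26 on the log2 scale, with adjusted p-values of 0.42 or more (edgeR).

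At 3 days after the lesion, Egr1 and Egr2 rose in the DG of Synpo+/+ cultures and the 4 other members did not pass the test. Of the 23720 genes tested, 12.2% were called, and of the members 2 of 6. Egr1 was at 19.3 to 25.9 CPM in the 4 control libraries and at 36.3 (lowest), 75.9 (median) and 128 CPM (highest) in the 7 ECL libraries. Every ECL library lay above every control library, and the highest ECL value was more than 3 times the lowest. The share of all genes with such a separation is not given here. The log2 fold change of Egr1 was 1.79 ± 0.27 (3.47-fold, adjusted p = 0.000999, edgeR). Egr2 moved further from a lower start. Its control libraries read 0.826, 1.38, 0.566 and 1.23 CPM, or 12 to 28 counts each, and its ECL libraries 3.23 (lowest), 9.96 (median) and 18.2 CPM (highest), or 57 to 559 counts. Again no ECL library fell into the control range, and the log2 fold change was 3.22 ± 0.44 (9.29-fold, adjusted p = 0.000482, edgeR). Replicate 4 was the highest of the 7 ECL libraries in both genes and replicate 2 the lowest.

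**Figure D1:**
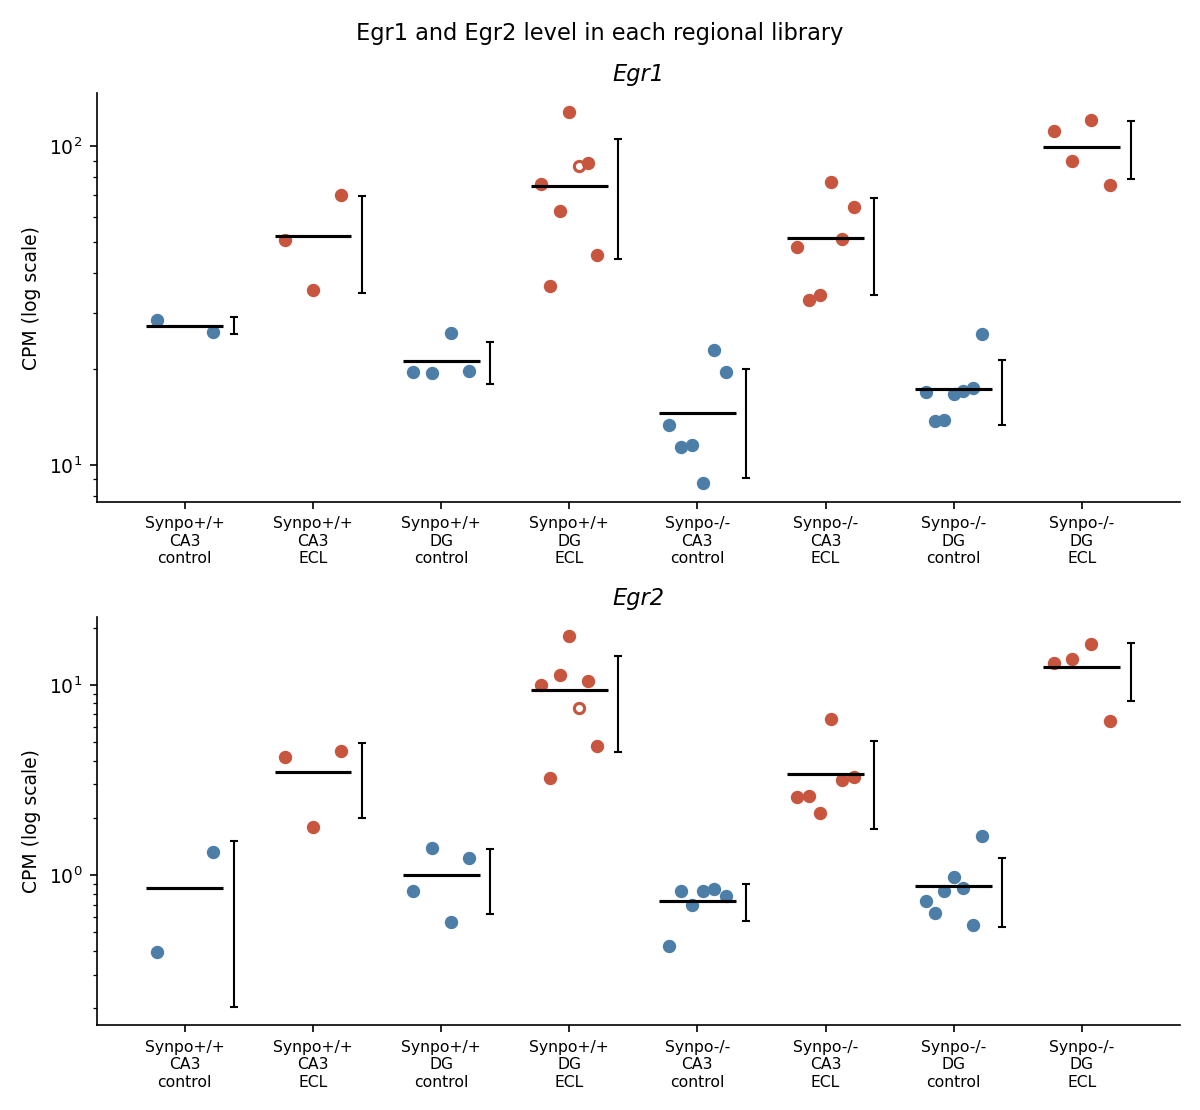
Level of Egr1 (top) and Egr2 (bottom) in each of the 39 regional libraries, in CPM on a log axis, by genotype label, region and lesion. Each point is 1 library (open circle: the Synpo+/+ DG library with low Prox1), lines are means and bars 1 SD. In each of the 4 pairs of groups, every ECL library lies above every control library for both genes. The share of all genes that do so is not given.

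Neither call rested on the library with low Prox1. Without it, Egr1 had a log2 fold change of 1.74 ± 0.26 (adjusted p = 0.000384, edgeR) and Egr2 of 3.25 ± 0.42 (adjusted p = 0.000119, edgeR). The mean of the 6 remaining ECL libraries was 72.8 ± 33.02 (SD) CPM for Egr1 and 9.66 ± 5.32 CPM for Egr2, against 74.7 ± 30.6 and 9.36 ± 4.92 CPM in all 7. In the Synpo+/+ DG groups, 4 of 4 control libraries but 4 of 7 ECL libraries had more counts of Xist than of Y-linked genes. Among those libraries alone, the log2 fold change was 2.01 ± 0.25 for Egr1 (adjusted p = 0.00131, edgeR) and 3.34 ± 0.41 for Egr2 (adjusted p = 0.00131, edgeR). Those libraries include the one with low Prox1, and a fit of this subset without it is not given.

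Egr3, a relative of Egr1 with a largely shared DNA motif, was at 53.5 to 66.1 CPM in the 4 control libraries of the Synpo+/+ DG and at 47.8 (lowest), 80.4 (median) and 97.2 CPM (highest) in the 7 ECL libraries. Here 5 ECL libraries lay above the control range and 1 below it, and the log2 fold change of 0.38 ± 0.17 did not pass (adjusted p = 0.137, edgeR). It passed without ECL replicate 2, the lowest library (log2 fold change 0.43, adjusted p = 0.0476, edgeR). Egr4, which has no Nab-binding domain, read 1.01, 2.46, 0.991 and 0.919 CPM in the controls and 1.24 to 3.40 CPM after ECL, with 3 of 7 ECL libraries above the control range (log2 fold change 0.71 ± 0.36, adjusted p = 0.18, edgeR). The overlap came from control replicate 2, at 2.46 CPM. Without that library the log2 fold change was 1.14 ± 0.36 and did not pass either (adjusted p = 0.0848, edgeR). Egr4 counts were 18 to 128 per library, so changes of this size were within the spread.

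Among the corepressors, Nab1 had the smallest log2 fold change of the 6 members in this comparison. It was at 19.96 to 25.9 CPM in control libraries and at 20.9 (lowest), 25.0 (median) and 27.2 CPM (highest) after ECL, with a log2 fold change of 0.09 ± 0.11 (adjusted p = 0.565, edgeR). Nab2 was at 3.05, 2.04, 3.21 and 3.85 CPM in control libraries and at 2.82 (lowest), 4.76 (median) and 5.50 CPM (highest) after ECL. For Nab2, 5 of 7 ECL libraries lay above the control range, and the log2 fold change of 0.49 ± 0.22 did not pass (adjusted p = 0.138, edgeR). Without the library with low Prox1, the log2 fold changes were 0.30 ± 0.15 for Egr3, 0.56 ± 0.36 for Egr4, 0.05 ± 0.11 for Nab1 and 0.42 ± 0.22 for Nab2, with adjusted p-values of 0.188 to 0.78 (edgeR).

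**Figure D2:**
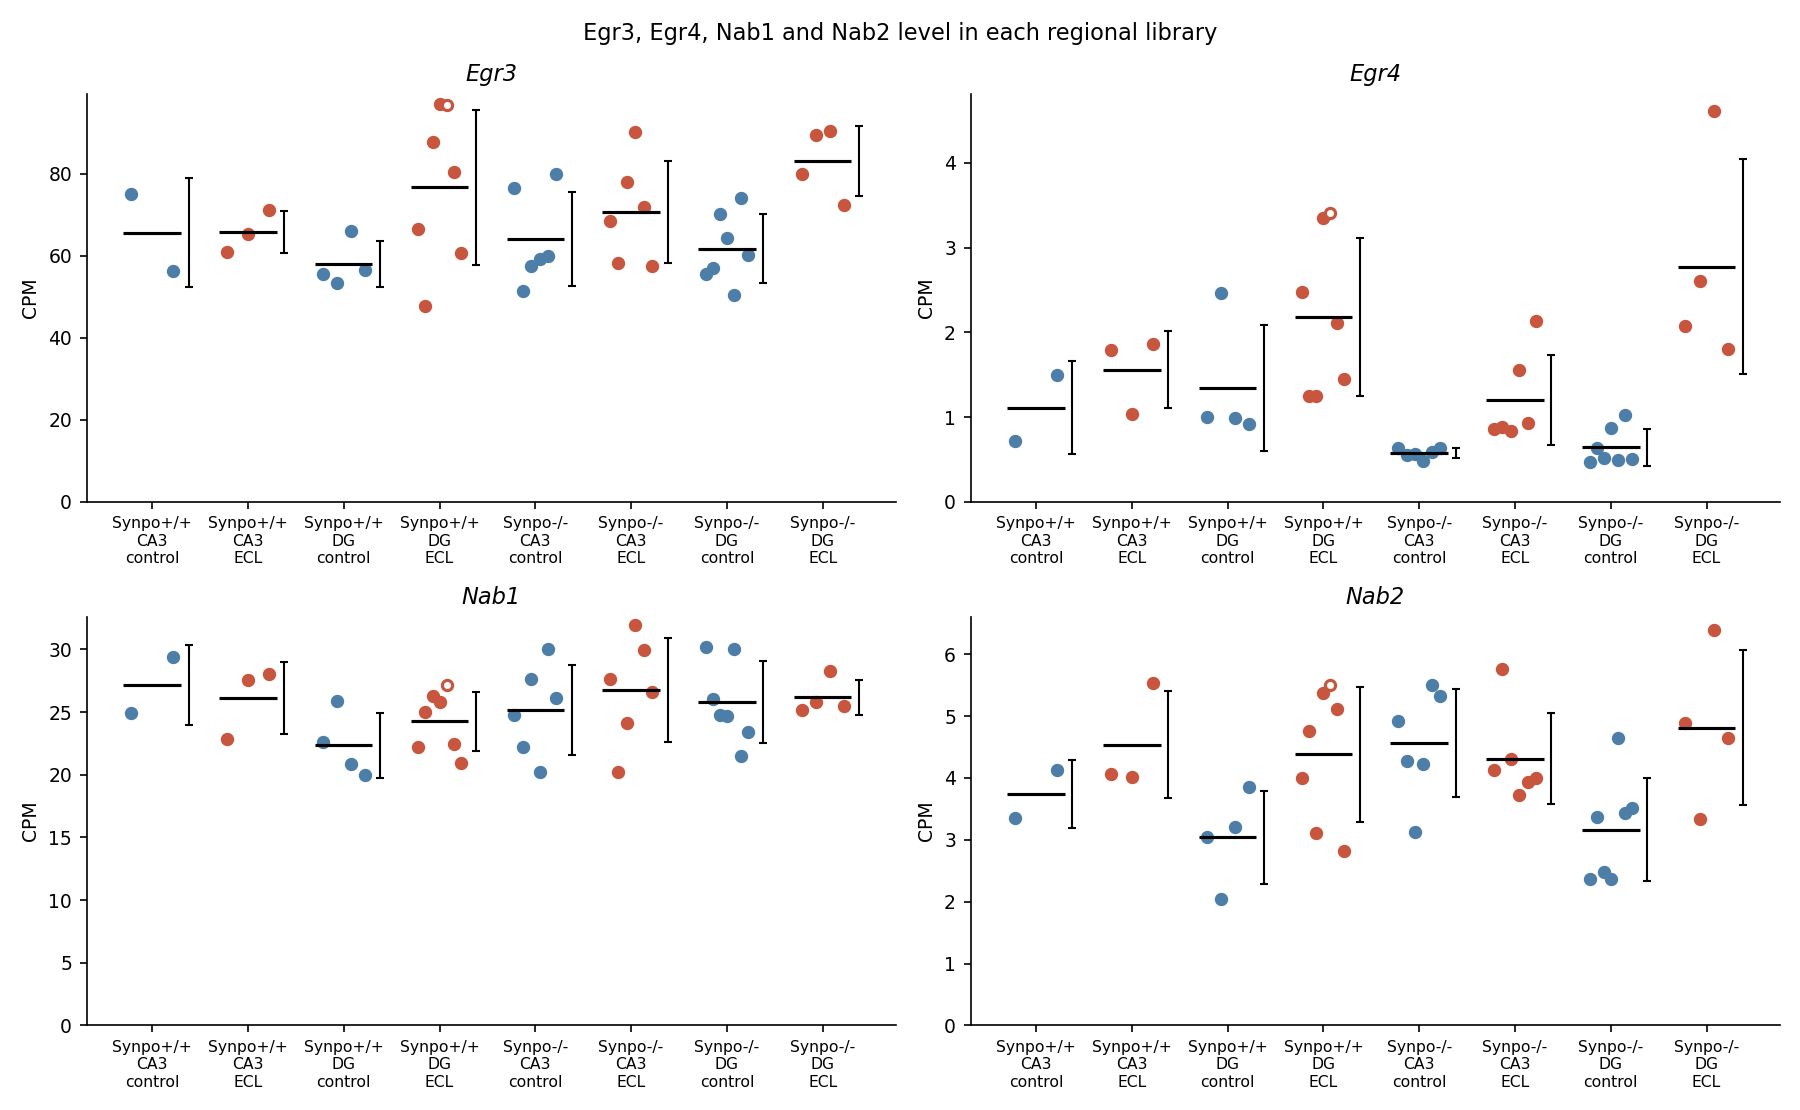
Level of Egr3, Egr4, Nab1 and Nab2 in each of the 39 regional libraries, in CPM from 0, with libraries as points (open circle: the Synpo+/+ DG library with low Prox1), means as lines and SD as bars. Control and ECL libraries of the Synpo+/+ cultures overlap in all 4 genes, and the Egr4 values of Synpo-/- libraries do not. Egr4 counts were low, and how many of all genes separate in this way is not given.

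With Egr1 and Egr2 higher, the make-up of the family was different in lesioned Synpo+/+ DG. After ECL, Egr1 made up 43.1% ± 4.80 of the summed Egr level per kb (n = 7), Egr3 47.3% ± 6.07 and Egr2 6.94% ± 1.93. The lowest share of Egr1 after ECL was 36.9% and the highest before it 26.9%. Over the 6 libraries without the one with low Prox1 the shares were 43.1% ± 5.26 for Egr1, 47.0% ± 6.61 for Egr3 and 7.28% ± 1.88 for Egr2 (n = 6).

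**Figure D3:**
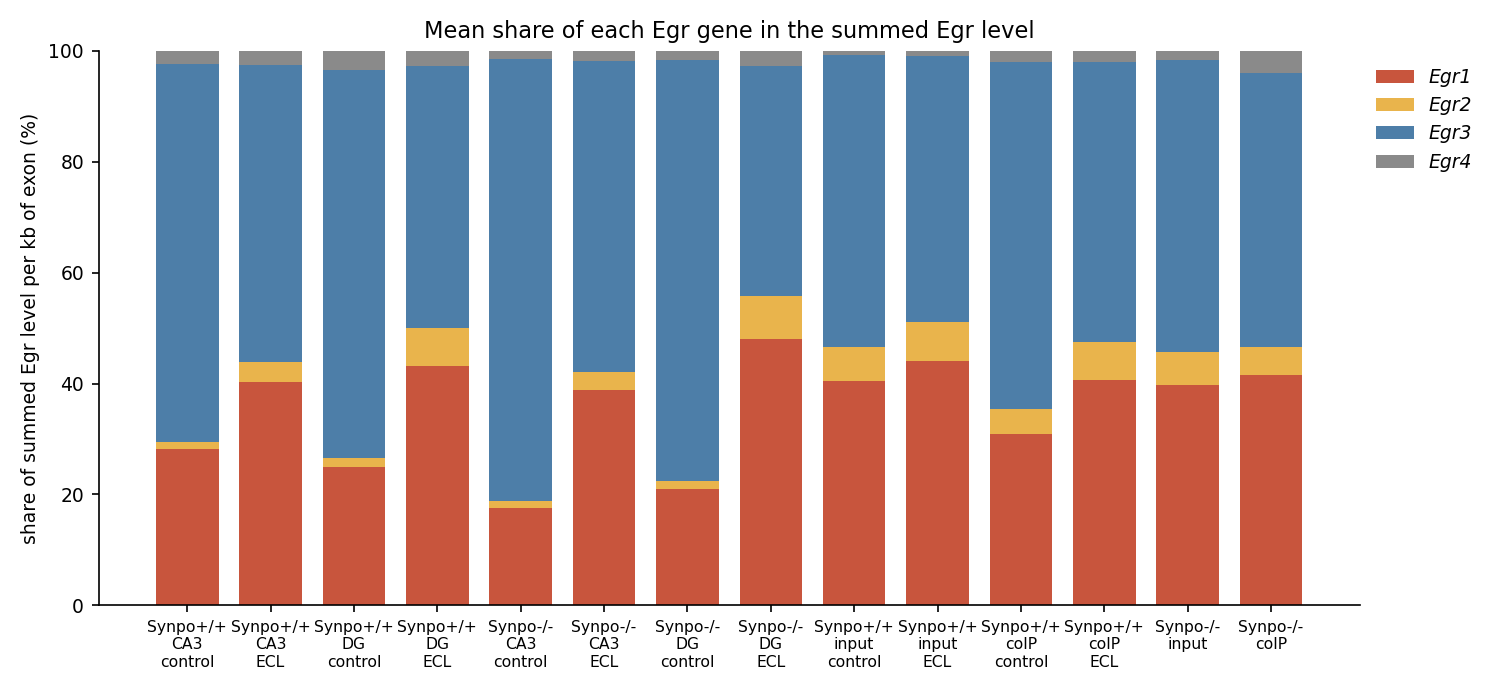
Mean share of each Egr gene in the summed Egr level per kb of exon (%), for the 14 groups of libraries. Egr1 takes 25.0% in Synpo+/+ DG control libraries and 43.1% after ECL, and 40.4% in Synpo+/+ control inputs of the coIP experiment.

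In CA3 of Synpo+/+ cultures, 0 of 6 members were called after the lesion by edgeR, with 1.78% of 22340 genes called. Egr1 and Egr2 had an unadjusted p under 0.05, as did 5348 of all genes tested. DESeq2 called these 2 members and 1343 genes in all. Egr1 read 28.5 and 26.2 CPM in the 2 control libraries and 50.9, 35.3 and 70.1 CPM in the 3 ECL libraries. The groups did not overlap, which is easily reached with 2 and 3 libraries, and the share of all genes without overlap is not given. The log2 fold change was 0.82 ± 0.23 (1.77-fold, adjusted p = 0.0854, edgeR, and 0.016 with DESeq2). Egr2 read 0.394 and 1.32 CPM (6 and 22 counts) in the controls and 4.17, 1.79 and 4.50 CPM (79, 45 and 126 counts) after ECL. These groups did not overlap either, with a log2 fold change of 1.89 ± 0.55 (adjusted p = 0.0886, edgeR, and 0.0163 with DESeq2). It rested on few control counts, and was 1.32 ± 0.57 without control replicate 1 and 3.05 ± 0.72 without control replicate 2, each with a lone control library that is assumed to vary like the ECL libraries. The number of all genes called also moved with single libraries, from 397 to between 0 (without ECL replicate 1) and 669 (without control replicate 2). With no filter on low counts, edgeR called both genes too (adjusted p = 1.72e-05 and 0.000263), among 2716 of 47901 genes. The other 4 members changed by -0.16 to 0.38 on the log2 scale (adjusted p of 0.534 or more, edgeR).

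Whether the response differed between the regions was asked directly. For Egr1 the log2 fold change in DG exceeded that in CA3 by 0.92 ± 0.44, and for Egr2 by 1.28 ± 0.81, with an adjusted p of 0.9995 for each (edgeR). No member was called in this test and 0% of 27783 genes were, with 1240 genes at an unadjusted p under 0.05 and 10 called by DESeq2. Leaving out the library with low Prox1, the differences were 0.88 ± 0.43 for Egr1 and 1.33 ± 0.82 for Egr2, with adjusted p-values of 0.703 and 0.775 (edgeR), and 3 genes were called. Compared side by side after ECL, DG and CA3 of Synpo+/+ cultures also gave 0 calls among 6 members by edgeR, with 2.05% of 24029 genes called. DESeq2 called 0 members. An unadjusted p under 0.05 was found for 4698 of all genes and for 1 member. That member was Egr2, higher in DG by 1.49 ± 0.45 on the log2 scale (adjusted p = 0.0907, edgeR). Without the library with low Prox1 the value for Egr2 was 1.52 ± 0.42 and passed (adjusted p = 0.0164, edgeR), and 4746 of 23965 genes were called. The other members did not pass without it, with log2 fold changes of -0.09 (Nab1), -0.07 (Nab2), 0.21 (Egr3), 0.41 (Egr4) and 0.53 (Egr1) and adjusted p-values of 0.2365 or more (edgeR). Without any 1 of the 9 other libraries, 0 to 6 genes were called, so the count of 492 moved with each library left out. In DG, 6 of 7 ECL libraries had more Egr2 than the highest CA3 library, at 4.50 CPM. These regional comparisons share libraries with the lesion comparisons above.

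In the libraries labelled Synpo-/-, which chose this gene family, the same 2 genes lay highest above control. Egr1 was at 13.8 (lowest), 16.95 (median) and 25.8 CPM (highest) in the 7 DG control libraries and at 112, 89.9, 121 and 75.3 CPM in the 4 ECL libraries, a log2 fold change of 2.48 ± 0.15. In CA3 it went from 8.75 to 22.9 CPM in 6 control libraries to 32.9 to 77.3 CPM in 6 ECL libraries, a log2 fold change of 1.84 ± 0.23. By size of change among genes with a mean normalized count over 300, Egr1 ranked 2 of 8229 in CA3 and 3 of 8611 in DG, so it was near the top and not at it. The log2 fold change of Egr2 was 3.77 ± 0.26 in DG, where it reached 13.1, 13.7, 16.4 and 6.49 CPM after ECL, and 2.22 ± 0.30 in CA3. Egr4 had a log2 fold change of 2.04 ± 0.31 in DG and 1.08 ± 0.32 in CA3, and its ECL libraries lay above its control libraries in both regions. These were low counts, at 8 to 28 in DG controls and 44 to 135 after ECL. In CA3 they were 8 to 15 in controls and 17 to 61 after ECL. How many of all genes separated in this way is not given. The Egr4 groups overlapped in Synpo+/+ cultures, in DG through 1 control library, and the difference between genotypes was not tested. The control level of Egr4 was 0.645 ± 0.218 CPM in Synpo-/- DG and 1.34 ± 0.747 CPM in Synpo+/+ DG. That second mean includes the library at 2.46 CPM, with the others at 0.919 to 1.01 CPM. The remaining members had log2 fold changes of 0.38 ± 0.11 (Egr3), 0.57 ± 0.20 (Nab2) and -0.02 ± 0.10 (Nab1) in DG and of 0.15 ± 0.12, -0.07 ± 0.16 and 0.10 ± 0.12 in CA3.

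Across the 8 regional groups the order of mean Egr1 levels ran from Synpo-/- DG ECL (99.4 ± 20.6 CPM) through Synpo+/+ DG ECL (74.7), Synpo+/+ CA3 ECL (52.1) and Synpo-/- CA3 ECL (51.3) to Synpo+/+ CA3 control (27.3), Synpo+/+ DG control (21.1), Synpo-/- DG control (17.3) and Synpo-/- CA3 control (14.6). The 4 ECL groups overlapped with their neighbours in this order. A gap separated the lowest ECL group, whose lowest library was at 32.9 CPM, from the highest control group, whose highest library was at 28.5 CPM. For Egr2 the 4 ECL groups also stood above the 4 control groups, with a lowest ECL library of 1.79 CPM and a highest control library of 1.61 CPM. Neighbours in the order overlapped throughout for Egr3, Egr4, Nab1 and Nab2. Group means spanned 57.9 to 83.1 CPM for Egr3, 22.3 to 27.1 CPM for Nab1 and 3.04 to 4.81 CPM for Nab2.

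**Figure D4:**
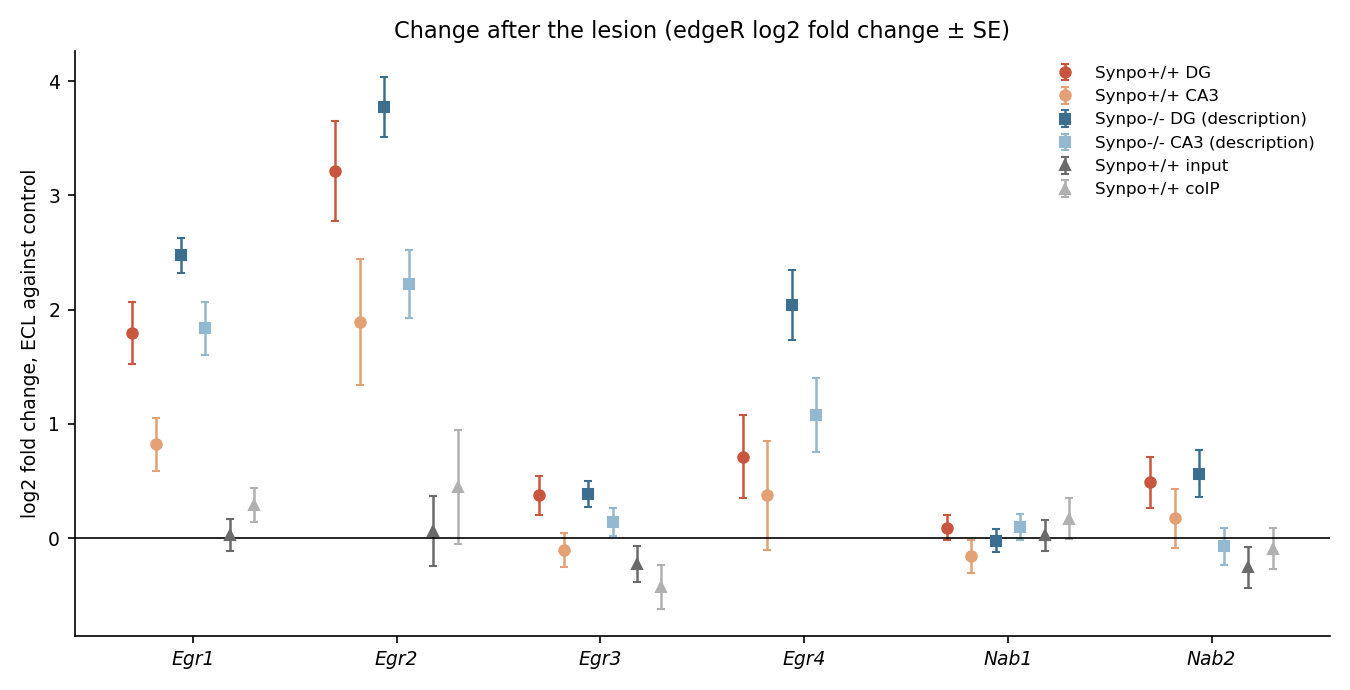
log2 fold change of each member after ECL against control, with its SE, in 6 comparisons: Synpo+/+ DG and CA3, Synpo-/- DG and CA3 (description, not tested), and input and coIP libraries of Synpo+/+ cultures. Egr1 and Egr2 lie highest in the 4 regional comparisons and within 0.5 of 0 in the input and coIP libraries, where Egr4 was too low to be tested.

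The lesion response was not detectable in the inputs of the coIP experiment, which came from pooled cultures and were not dissected by region. In Synpo+/+ inputs, 0 of 5 tested members were called by edgeR or DESeq2, with 5.61% of 17951 genes called and 0 members at an unadjusted p under 0.05. Egr1 read 19.5, 14.6, 15.8, 15.7 and 12.5 CPM in control inputs and 17.3, 18.7, 12.9, 13.6 and 17.3 CPM in ECL inputs. The groups overlapped, and the log2 fold change was 0.03 ± 0.14 (adjusted p = 0.946, edgeR). Egr2 read 1.27, 1.35, 2.28, 2.45 and 1.47 CPM in control inputs and 2.87, 1.34, 1.66, 2.42 and 0.992 CPM in ECL inputs, also overlapping (log2 fold change 0.07 ± 0.31, adjusted p = 0.939, edgeR). The labels of the inputs name the lesion, and the CPM of the 2 experiments were scaled separately. Within the inputs the family was made up differently from the regional libraries, with Egr1 at 40.4% ± 2.63 and Egr3 at 52.7% ± 4.01 of the summed Egr level per kb in control cultures (n = 5).

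In the coIP fraction, ECL and control libraries of Synpo+/+ cultures also showed 0 of 5 tested members called by edgeR or DESeq2, with 0.314% of 18449 genes called. An unadjusted p under 0.05 was found for 2252 of all genes and for 1 member. That member was Egr3, at 28.9, 20.8, 14.7, 18.2 and 17.2 CPM in control coIPs and 14.2, 19.8, 11.1, 12.2 and 16.2 CPM in ECL coIPs (log2 fold change -0.43 ± 0.19, adjusted p = 0.397, edgeR). Egr4 had 1 to 14 counts per Synpo+/+ library of this experiment and fell below the filter on low counts.

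The coIP was then compared with its input, a step that also includes the background of antibody and beads. In Synpo+/+ control cultures, Egr1 was lower and Nab2 higher in the coIP, so 2 of 5 tested members were called where 55.0% of 18222 genes were. Egr1 read 10.2, 11.1, 8.17, 8.84 and 10.5 CPM in the coIP, below the lowest of the 5 inputs at 12.5 CPM. Its log2 fold change was -0.66 ± 0.14 (1.58-fold lower, adjusted p = 0.000933, edgeR). Nab2 read 4.00, 4.96, 4.62, 5.33 and 5.54 CPM in the coIP and 3.23, 4.18, 2.82, 3.13 and 4.30 CPM in the input, with 4 of 5 coIPs above the input range. Its log2 fold change was 0.49 ± 0.18 (adjusted p = 0.0281, edgeR), and this call was lost when any 1 of 5 libraries was left out (input replicates 1, 3 and 4, coIP replicates 4 and 5, adjusted p of 0.058 to 0.0741, edgeR), with log2 fold changes of 0.41 to 0.45. These fits did not use the pairs of input and coIP from 1 lysate. With the replicate number as a block, Egr1 and Nab2 were called as well. In each of the 5 pairs from 1 lysate, Nab2 was higher in the coIP. How many of all genes separated or kept to 1 direction in this way is not given.

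After ECL the same 2 members were called in the coIP of Synpo+/+ cultures, 2 of 5 tested, beside 58.3% of 18229 genes. Egr1 read 17.3, 18.7, 12.9, 13.6 and 17.3 CPM in the input and 14.1, 11.003, 9.62, 10.9 and 13.4 CPM in the coIP. It was lower in the coIP in each of the 5 pairs from 1 lysate, although the groups overlapped, with a log2 fold change of -0.42 ± 0.15 (adjusted p = 0.024, edgeR). This call was lost when any 1 of 4 libraries was left out (input replicates 2 and 5, coIP replicates 2 and 3, adjusted p of 0.0506 to 0.0631, edgeR). Those fits did not use the pairs, and with the replicate number as a block Egr1 was called. Nab2 read 3.59, 2.77, 3.07, 3.10 and 2.34 CPM in the input and 4.10, 5.05, 3.90, 5.69 and 4.00 CPM in the coIP, with no overlap (log2 fold change 0.63 ± 0.19, adjusted p = 0.0107, edgeR). How many of all genes separated in this way is not given. The Nab2 call held without each library in turn (highest adjusted p = 0.0317, edgeR). Egr2, Egr3 and Nab1 did not pass in either Synpo+/+ comparison, with log2 fold changes of -0.60 to 0.02 in control cultures and -0.24 to -0.01 after ECL.

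**Figure D5:**
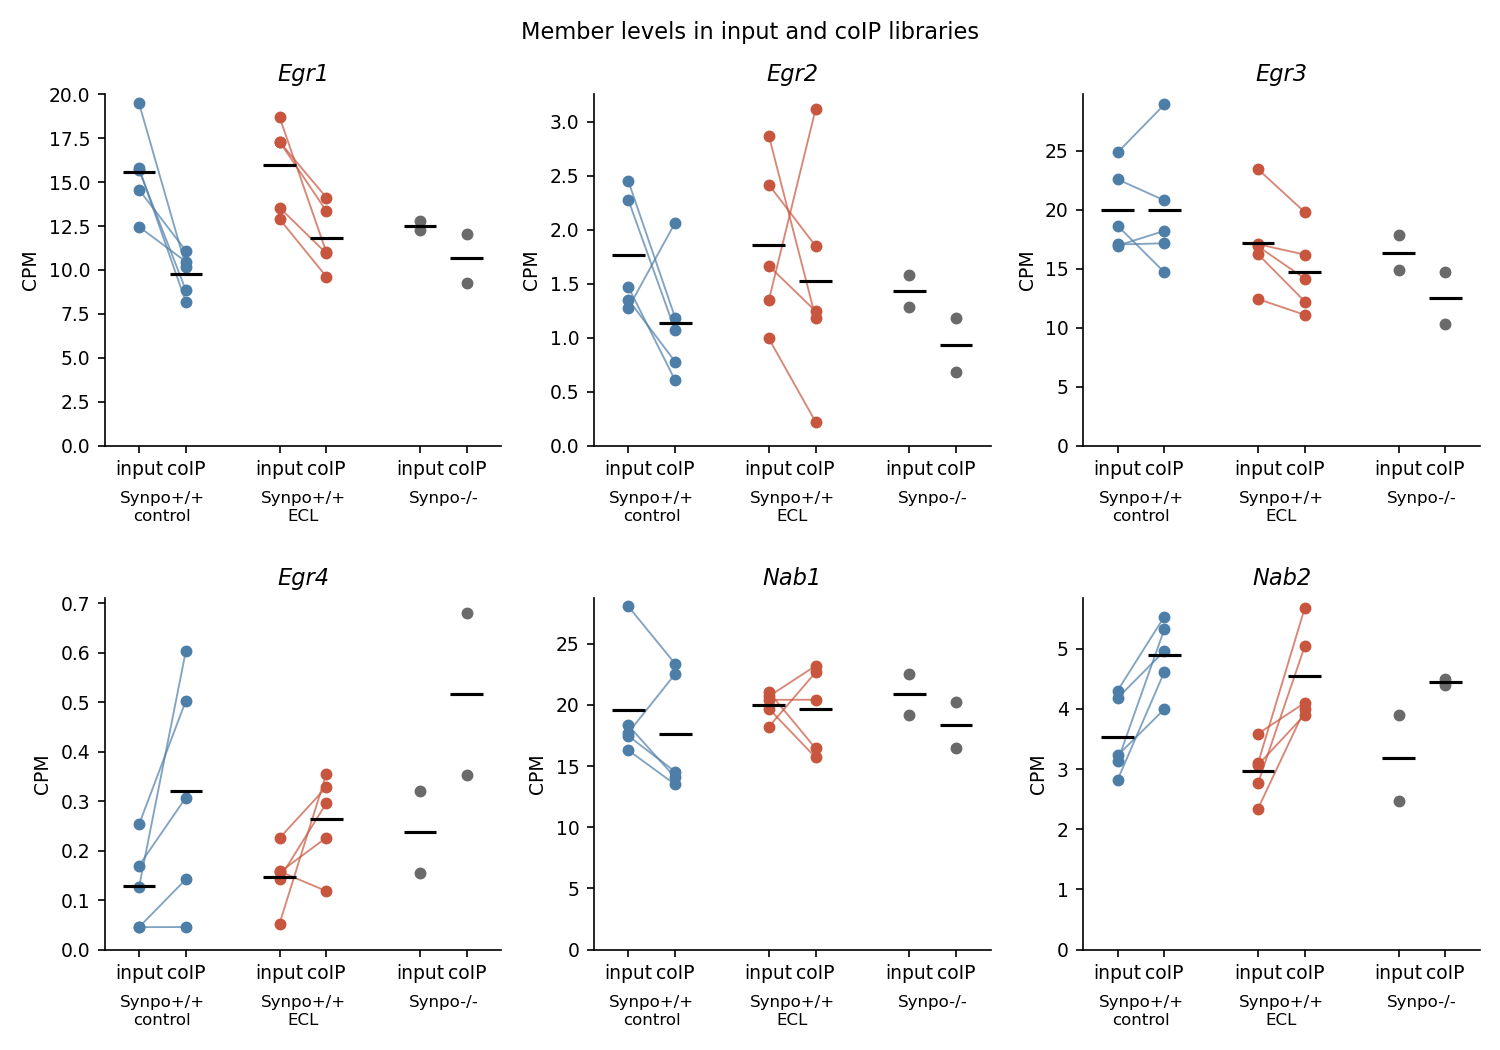
Level of each member in input and coIP libraries, in CPM from 0, for Synpo+/+ control, Synpo+/+ ECL and Synpo-/- cultures. Points are libraries, thin lines join input and coIP of 1 lysate in Synpo+/+ cultures, and black lines are means. Egr1 is lower and Nab2 higher in the coIP than in its input in each of the 10 Synpo+/+ pairs. How many of all genes keep to 1 direction in this way is not given.

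The coIP from cultures labelled Synpo-/- was made, by design, as the background of antibody and beads. There 0 of 6 members were called by edgeR or DESeq2, with 31.4% of 20892 genes called and 0 members at an unadjusted p under 0.05. Egr1 read 12.3 and 12.8 CPM in the 2 inputs and 12.0 and 9.28 CPM in the 2 coIPs (log2 fold change -0.27 ± 0.19, adjusted p = 0.319, edgeR). Nab2 read 2.47 and 3.90 CPM in the inputs and 4.50 and 4.40 CPM in the coIPs (log2 fold change 0.44 ± 0.29, adjusted p = 0.259, edgeR). Both values had the sign seen in Synpo+/+ cultures. Egr3 lay lower in both coIPs (14.7 and 10.3 CPM) than in both inputs (14.9 and 17.8 CPM), with a log2 fold change of -0.43 ± 0.21 and an adjusted p of 0.132 (edgeR). How many of all genes separated in this way is not given.

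Tested as a difference between genotypes, the step from input to coIP was compared between Synpo-/- and Synpo+/+ control cultures. It was 0.44 ± 0.25 higher on the log2 scale in Synpo-/- for Egr1 (adjusted p = 0.761, edgeR) and 0.01 ± 0.32 higher for Nab2 (adjusted p = 0.9994, edgeR). No member was called and 0% of 20621 genes were by edgeR, with 1511 genes at an unadjusted p under 0.05 and 51 called by DESeq2. With the replicate number as a block, 61 genes were called, and the differences were 0.43 ± 0.23 for Egr1 (adjusted p = 0.457, edgeR) and 0.04 ± 0.30 for Nab2 (adjusted p = 0.977, edgeR). That these numbers pair the Synpo-/- libraries was not shown, and the labels of their inputs disagree on the number. Tested as a difference between lesioned and control Synpo+/+ cultures, the step was 0.28 ± 0.20 higher after ECL for Egr1 and 0.18 ± 0.24 higher for Nab2, with an adjusted p of 0.9998 for each (edgeR). Here 0% of 19581 genes were called by edgeR, with 434 at an unadjusted p under 0.05 and 0 called by DESeq2. A dependence of either step on genotype or lesion was not shown.

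Other immediate early transcription factors moved with Egr1 and Egr2 in the lesioned DG of Synpo+/+ cultures. Of 14 tested, 7 rose and 0 fell, beside 7.86% of all genes called higher, and the median log2 fold change of the list was 0.86, against -0.003 over all genes tested. Nr4a1 (log2 fold change 1.91 ± 0.41), an orphan nuclear receptor, Fos (1.61 ± 0.27), the AP-1 subunit, Npas4 (1.30 ± 0.23), a neuronal activity factor, and Atf3 (0.97 ± 0.17), a stress and injury factor, were among them, with adjusted p-values of 0.00966 or less (edgeR). Without the library with low Prox1, 7 of 14 were called as well. In Synpo+/+ CA3, 0 of 14 were called by edgeR, and the list median was 0.14. Of the 3 at an unadjusted p under 0.05, Ier2 was higher (1.09 ± 0.37), and Nr4a2 (-0.55 ± 0.17) and Maff (-1.21 ± 0.34) were lower. In ECL inputs 0 rose and 1 of 12 fell (Nr4a2, log2 fold change -0.54 ± 0.10, adjusted p = 0.00675, edgeR), beside 3.16% of all genes called lower. The list median there was -0.40, and 6 of 12 genes had an unadjusted p under 0.05, each of them lower. Between ECL and control coIPs the list median was -0.41, with 0 of 14 called and 5 at an unadjusted p under 0.05, each lower after ECL.

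The lists of Egr regulators, Egr targets and NuRD genes are given beside the 12.2% of all genes called in lesioned Synpo+/+ DG (7.86% higher and 4.31% lower). In that comparison an unadjusted p under 0.05 was found for 2 of 15 regulators, 5 of 15 targets and 8 of 13 NuRD genes. Of all 23720 genes tested, 7823 had such a p-value. Of 15 MAP kinase, ternary complex factor, SRF and CREB genes, 2 rose and 0 fell in the lesioned Synpo+/+ DG, namely Rps6ka1, a ribosomal S6 kinase (0.71 ± 0.16, adjusted p = 0.0141, edgeR), and Map2k2, a kinase of ERK (0.55 ± 0.16, adjusted p = 0.04, edgeR). Srf, the serum response factor, had a log2 fold change of 0.37 ± 0.34 (adjusted p = 0.455, edgeR). Among 15 genes described as Egr targets, 2 rose and 0 fell. These were Arc, an immediate early gene of dendrites and synapses (2.90 ± 0.48, adjusted p = 0.002, edgeR), and Cd44, a hyaluronan receptor of glia and immune cells (0.56 ± 0.10, adjusted p = 0.0038, edgeR). The other 13, among them Syn1, a synaptic vesicle protein, did not pass. The NuRD complex, through which Nab proteins act in part, had 2 of 13 genes called, both higher (Hdac1 0.55 ± 0.12 and Gatad2a 0.48 ± 0.14, adjusted p of 0.0108 and 0.0366, edgeR). Of 5 tested Egr2 targets known from Schwann cells, 1 rose (Pmp22, 0.47 ± 0.14, adjusted p = 0.0375, edgeR), and the myelin genes Mbp (0.48 ± 0.25) and Mag (0.62 ± 0.32) did not pass. When the library with low Prox1 was left out, the counts of these 4 lists were again 2, 2, 2 and 1 higher and 0 lower, with list medians of 0.02 (regulators), 0.16 (targets), 0.27 (NuRD) and 0.25 (Schwann cell targets), against 0.09, 0.20, 0.34 and 0.48 with it. In CA3 of Synpo+/+ cultures, edgeR called 0 genes of these 4 lists, with 4, 6, 7 and 2 genes at an unadjusted p under 0.05, of 15, 15, 13 and 5 tested. Of all 22340 genes tested there, 5348 had such a p-value.

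In the coIP of Synpo+/+ control cultures, where 29.6% of all genes were called higher and 25.5% lower, 6 of 14 Egr targets were higher and 1 lower, with a list median of 0.47 against 0.04 over all genes. The higher ones included Fn1 (0.83 ± 0.13), a matrix protein, Dlg4 (0.67 ± 0.10), the scaffold PSD-95, and Cdk5r1 (0.65 ± 0.10), the activator of Cdk5, and the lower one was Gabra4 (-0.50 ± 0.08), a GABA-A receptor subunit. Of 13 NuRD genes, 5 were higher and 4 lower. Chd3 (1.16 ± 0.15) and Chd4 (0.97 ± 0.11), the remodelling ATPases, were among the higher ones, and the histone chaperones Rbbp7 (-0.53 ± 0.09) and Rbbp4 (-0.44 ± 0.09) were lower. After ECL the counts were 6 higher and 2 lower of 14 targets and 5 higher and 3 lower of 13 NuRD genes. In the Synpo-/- coIP they were 4 higher and 1 lower of 15 and 4 higher and 0 lower of 13. Each share stands against a background in which 31.4% to 58.3% of all genes were called.

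Microglia and astrocyte markers rose beside Egr1 and Egr2 in the lesioned DG. In Synpo+/+ cultures 8 of 8 microglia markers rose, from a summed level of 259 to 350 CPM in controls to 603 to 818 CPM after ECL, and 5 of 6 astrocyte markers, from 3064 to 3820 CPM to 5509 to 7320 CPM. Of 6 oligodendrocyte markers 1 rose. Of 5 endothelial markers 2 fell, from 14.7 to 20.6 CPM to 9.99 to 13.8 CPM summed. Among all genes in this comparison, 7.86% were called higher and 4.31% lower. By edgeR, 0 of 6 neuron, 8 granule cell and 3 interneuron markers were called, with 0, 0 and 1 at an unadjusted p under 0.05. Without the library with low Prox1, 2 of 8 granule cell markers and 6 of 6 astrocyte markers rose, and the count for microglia was again 8 of 8. Also without it, 2 of 6 oligodendrocyte markers rose, 2 of 5 endothelial markers fell, and 0 neuron and 0 interneuron markers were called, beside 3250 of 23605 genes. In Synpo+/+ CA3, 2 of 8 microglia markers and 1 of 6 neuron markers rose, with summed microglia levels of 287 and 480 CPM in controls and 573 to 763 CPM after ECL. Microglia markers also rose in ECL inputs, 3 of 8, where Egr1 and Egr2 did not pass. There 1 of 6 astrocyte and 0 of 6 oligodendrocyte markers rose, beside 2.45% of all genes, and 1 of 6 neuron markers fell. No marker of these lists was at 0 in any group, and the part of these cells in the change of Egr1 and Egr2 was not tested. In the coIP of Synpo+/+ cultures, 2 of 8 microglia markers were called lower than in the input in control cultures, where 25.5% of all genes were, and 5 of 8 after ECL, where 27.8% were.

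Over the means of the 8 regional groups, the 11504 genes with a mean of at least 5 CPM were ranked by the correlation of their log2 CPM with each member, as a description over 8 points that share the lesion contrast. Most like Egr1 were Sfpq (r = 0.98), a splicing factor, Ier2 (0.98), an immediate early gene, Sltm (0.97), Prss23 (0.97) and Hspb1 (0.97), a small heat shock protein. For Egr2 they were Mki67 (0.99), a marker of proliferating cells, Srebf1 (0.98), a regulator of lipid synthesis, and Sfpq (0.98). Egr4 was most like Junb (0.98), an AP-1 subunit, Gm13889 (0.96) and Unc45a (0.96), and Egr3 most like Vim (0.98), Lgals1 (0.97) and Col4a6 (0.97). The nearest genes to Nab1 were Ndufs4 (0.95), Ctdp1 (0.95) and Kcnn2 (0.94), and to Nab2 Mxra8 (0.99), Dbx2 (0.98) and Gla (0.98). Among the members themselves, Egr1 and Egr2 had the highest value (r = 0.96) and Egr4 and Nab1 the lowest (r = -0.02).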

How the data were processed

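RNA was sequenced as paired-end reads from low-input cDNA libraries. The authors trimmed reads with cutadapt 3.5, aligned them to mm10 with STAR 2.7.8a and deposited raw counts per gene symbol from featureCounts 2.0.1, made without regard to strand over GENCODE exons, for libraries in which most reads mapped uniquely. A symbol can stand for more than 1 gene, as it did for 107 symbols.

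The 6 members and all gene lists were chosen with earlier results of these data known. Each comparison was fitted separately with edgeR 4.0.16 in R 4.3.3 (TMM scaling, filterByExpr, quasi-likelihood test, Benjamini-Hochberg adjustment over all genes tested), and a gene was called at an adjusted p under 0.05. Regional Synpo-/- libraries were fitted without a test. CPM were scaled by TMM within each experiment, over 39 regional and 24 coIP libraries, and per kb values were divided by exon length. The scripts were tested on simulated data. All 6 members were named, and list genes were named as those called or as examples of their list. Overlap of groups was described for members, without the share of all genes beside it. Replicates were separate cultures or pools of cultures per the labels. No 2 libraries held identical counts. The difference between input and coIP was checked for pairing by lysate number: over 5 pairs each, deviations of same-numbered Synpo+/+ libraries correlated at 0.189 to 0.442 in control and 0.105 to 0.381 in ECL cultures, so those numbers pair the samples. The 2 Synpo-/- pairs each correlated at 0.0456, and the labels of their inputs disagree on the number, so pairing is not shown there. In lesion and region comparisons pairing by number is not shown either. Same-numbered libraries there correlated at -0.254 to 0.202 in lesion comparisons and at -0.000732 to 0.162 between regions after ECL. Alternatives were DESeq2 1.42.0, its size factors in edgeR (RLE), no filter on low counts, a removed length trend (lowess span 0.3), a replicate block, all groups of an experiment in 1 fit, a minimum mean of 300 normalized counts and leaving out each library. The counts without the library with low Prox1, taken over gene lists, and a crossed numbering of Synpo-/- pairs were added after seeing the data.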

Additional observations from a re-analysis of the deposited data

Results flagged for a closer look

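The 6 members were each examined in 10 groups of 4 to 7 libraries, 60 cases in all, and in 8 of them a library lay far from the others of its group. The limit used is one that chance passes in about 1 of 20 cases. In Synpo-/- DG controls, replicate 7 was at 25.8 CPM for Egr1, with the other 6 libraries at 13.8 to 17.4 CPM, and at 1.61 CPM for Egr2, with the others at 0.548 to 0.976 CPM. Egr1 was at 25.9 CPM in Synpo+/+ DG control replicate 3, against 19.3 to 19.7 CPM in the other 3 libraries. Egr2 was at 0.424 CPM in Synpo-/- CA3 control replicate 1, against 0.701 to 0.847 CPM, and at 6.66 CPM in Synpo-/- CA3 ECL replicate 4, against 2.13 to 3.30 CPM. Egr4 was at 2.46 CPM in Synpo+/+ DG control replicate 2, against 0.919 to 1.01 CPM. Nab1 was at 28.1 CPM in Synpo+/+ control input replicate 1, against 16.3 to 18.3 CPM, and Nab2 at 5.76 CPM in Synpo-/- CA3 ECL replicate 2, against 3.73 to 4.31 CPM. The cause of these values was not tested.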

How the results depend on the processing

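The rise of Egr1 in Synpo+/+ DG was called under all 19 alternatives (log2 fold change 1.62 to 2.01) and that of Egr2 under 18 of 19 (2.97 to 3.38). The exception was the minimum mean of 300 normalized counts, which Egr2 does not reach and which left 1 member called. In CA3, 2 members were called by DESeq2 and 2 without the filter on low counts. Between regions after ECL, 1 was called without the filter, 1 with the replicate block and 1 with all 8 groups in 1 fit, and in control coIPs 1 was called without the filter. Leaving out 1 library gave 0 to 1 calls between regions after ECL (Egr2, called without DG ECL replicate 5), 1 to 3 in control coIPs (Egr2, log2 fold change -0.94, adjusted p = 0.0236 by edgeR without coIP replicate 1), 1 to 2 in ECL coIPs and 0 to 1 in Synpo-/- coIPs. That 1 call (Egr3) came without coIP replicate 1, from a fit with a lone coIP library that is assumed to vary like the inputs. The block changed no other call of a member. Between genotypes it gave 61 genes called in all (29 with the Synpo-/- numbers crossed) against 0, and in lesion and region comparisons its numbers were not shown to pair the samples.

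Small values changed sign under alternatives. These were Egr3 in CA3 after the lesion (0.0028 with all groups), Nab2 between regions after ECL (-0.0071 with DESeq2, -0.0081 with RLE, -0.10 with the block, -0.0452 with all groups), Nab1 there (0.0005 with the block), Egr3 in control coIPs (-0.0184 with DESeq2, -0.0176 with RLE, -0.0057 without the filter, -0.0070 with the length trend removed, -0.0014 with the block, -0.0016 with all groups), Nab1 in ECL coIPs (0.0216 with the length trend removed) and the genotype difference of Nab2 (-0.0032 with RLE, -0.0456 with the length trend removed). Leaving out each library did so with these ranges. In CA3 they were -0.26 to 0.15 (Egr3), -0.0162 to 1.03 (Egr4), -0.24 to 0.0013 (Nab1) and -0.0021 to 0.37 (Nab2). In inputs they were -0.0451 to 0.12 (Egr1), -0.15 to 0.22 (Egr2) and -0.0344 to 0.19 (Nab1), and in coIPs after ECL against control -0.0271 to 0.79 (Egr2). Between control regions they were -0.39 to 1.32 (Egr2), -0.37 to 0.0631 (Egr3) and -0.18 to 0.87 (Egr4), and between regions after ECL -0.13 to 0.0007 (Nab1) and -0.0779 to 0.18 (Nab2). For coIP against input they were -0.16 to 0.11 (Egr3) and -0.25 to 0.0286 (Nab1) in control cultures, -0.73 to 0.0326 (Egr2) and -0.0756 to 0.0576 (Nab1) after ECL, and -0.28 to 0.38 for the genotype difference of Nab2. The cause was not tested.

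The number of all genes called in Synpo+/+ CA3 was 397 with edgeR, 1343 with DESeq2, 2716 without the filter, 875 with the block and 7 with all groups in 1 fit, and between regions after ECL 492, 1513 with DESeq2, 4999 with the block and 2036 with all groups. Among coIPs the lesion gave 58, 367 with DESeq2 and 1 with the block. Leaving out 1 library gave 0 to 669 in CA3, 999 to 3338 in DG (2886 with all libraries), 358 to 1070 in inputs (1007), 6 to 217 in coIPs, 660 to 1466 between control regions (1382) and 0 to 4746 between regions after ECL. Without the filter, all genes tested had a median change (log2) of -0.24 in CA3, -0.26 in DG, 0.13 between control regions and 0.22 between regions after ECL. Depth limited Egr4, with 1 to 14 counts in Synpo+/+ input and coIP libraries, and Egr2, with 6 and 22 counts in the 2 CA3 controls.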
